A study of Mus musculus with 10 samples.

Results

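Blood neutrophils of mice carrying 1 of 3 derivative kidney tumours were compared with those of mice carrying the parental tumour. The derivative side held 6 libraries, 2 from each of the lines OS5K #1, OS5K #2 and OS5K #3, and the parental side held the 2 OSPa libraries, so 8 of the 10 libraries of the series entered the comparison. It was made across the 8039 of 54146 genes that reached at least 1 RPKM (a read count corrected for gene length and library size) in at least 2 libraries. The measure of each gene was the mean of the 3 OS5K group means minus the OSPa mean on the log2(RPKM + 1) scale, on which changes of low genes are understated. The series set out to compare neutrophils of mice with the human clear cell renal cell carcinoma line OS-RC-2 and with lines derived from it. The labels do not say how the derivatives were made. OSPa was read as the parental line.

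All animals were BALB/c nu/nu mice, which lack a functional thymus and accept human cells. Tumour cells were placed in the kidney, and the remaining 2 libraries came from mice given vehicle only (sham). Circulating CD11b+ Ly-6G+ cells were sorted 14 days later in every group, and polyadenylated RNA was amplified from small inputs with SMART-Seq v4. Each tumour line is a single line, so 1 parent stands against 3 derivatives. Nothing in the labels tells whether the 2 libraries of a group came from separate animals or from pools. The p-values therefore rest on the scatter among these samples alone, and it may be technical.

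Neutrophils are short-lived cells that leave the bone marrow with their granules already filled. Their RNA is dominated by a few transcripts, such as those of the calcium-binding proteins S100a8 and S100a9. Young red cells keep globin and heme-enzyme mRNA after they lose the nucleus, platelets stick to neutrophils, and monocytes carry the CD11b antigen used in the sort, so transcripts of all of these cells can be met in a sorted blood fraction.

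Each library held between 13765576 and 15514537 reads, as worked out from the spacing of its RPKM values. The marker genes of the sort and of mature neutrophils were abundant on both sides. S100a9 had 41582 and 41408 RPKM in OSPa and from 38323 to 46971 in OS5K (median 44687), and S100a8 had 28576 and 24146 in OSPa and from 24140 to 32631 in OS5K (median 26521). Ly6g, the sorted surface antigen, had 65.7 and 93.7 RPKM in OSPa and from 52.7 to 101 in OS5K. Markers of other cells were mixed. The T cell genes Cd3e and Trac, the eosinophil granule genes Epx and Prg2 and the dendritic cell genes Flt3 and Siglech were at or near 0. Cd3d, also of T cells, had 13.7 and 15.7 RPKM in OSPa and from 15.2 to 22.3 in OS5K, and Ccr3, an eosinophil receptor, from 3.10 to 5.91 over both. Red cell, platelet, B cell and monocyte markers were present as well, and the part of these cells in the results was not tested.

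The beta-globin genes Hbb-bs and Hbb-bt, the heme enzyme gene Fech and the monocyte genes Ms4a4a, Ms4a6c, Ms4a6d and Ccr2 were among the genes that rose in OS5K, and no gene was called lower. A call was a limma p under 0.05 after Benjamini-Hochberg adjustment over all 8039 genes. By that rule 28 genes (0.348% of those tested) were higher in OS5K and 0 were lower, with 154 lower genes (1.92%) and 480 higher ones (5.97%) at an unadjusted p under 0.05. Limma-voom on recovered reads also called 0 lower and called 20 higher, of which 19 were among the 28. The log2 fold changes of the called genes ran from 0.71 to 2.91 with a median of 1.29, against a median of 0.02 over all genes tested. Of the 28 genes, 12 had a mean level under 5 RPKM over the 8 libraries.

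These calls depended on single libraries. The count of higher genes dropped to 0 when OSPa replicate 1 was left out and to 5 when the other OSPa library was. The parental side then held 1 library, which is assumed to vary like the other groups, from which the spread was taken. The count of higher genes was 56 without OS5K #1 replicate 2. With 1 replicate of OS5K #2 left out it was 15, whichever replicate that was, and with 1 of OS5K #3 it was 7. With a whole line left out of the contrast it was 13 without OS5K #1, 28 without OS5K #2 and 22 without OS5K #3. When each line mean was taken as 1 value, so that the error came from the spread between the lines, 77 genes were called higher and 19 lower, and 10 of the 28 were among the 77.

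**Figure D1:**
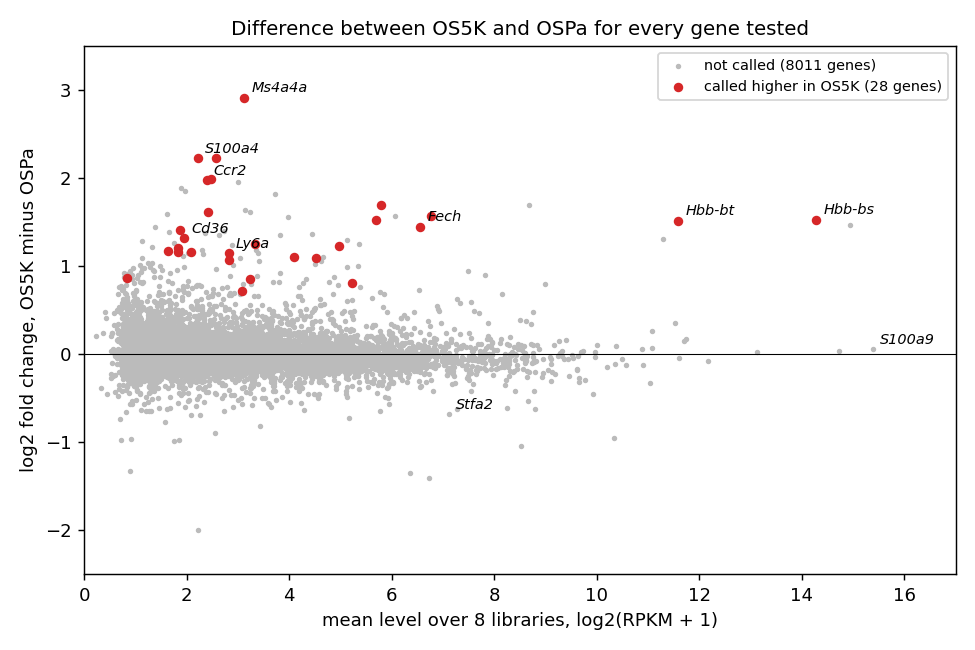
Each dot is 1 of the 8039 genes tested, with its mean level over the OSPa and OS5K libraries in log2(RPKM + 1) on the horizontal axis and its log2 fold change, OS5K minus OSPa, on the vertical axis. The 28 called genes, in red, all lie above 0, from low monocyte genes such as Ms4a4a (2.91) to the abundant beta-globin genes Hbb-bs (1.52) and Hbb-bt (1.51), and S100a9 lies near 0.

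Adult beta-globin genes were the most abundant of the called genes. In GRCm38 (mm10) Hbb-bs and Hbb-bt lie on the minus strand of chromosome 7, in the beta-globin cluster. The 250 bases before their RefSeq start sites (GRCm38.p6) are printed because these close copies moved together, and the promoter of Ms4a4a, the gene of largest rise, stands beside them for contrast. The regions are chr7:103827929-103828178 for Hbb-bs, chr7:103813924-103814173 for Hbb-bt and, on the plus strand, chr19:11375238-11375487 for Ms4a4a. Capitals mark 4 motifs searched on both strands. The GATA motif is GATAA, or TTATC read from the opposite strand. The CACCC box has GGGTG as its reverse. For the CCAAT box the reverse is ATTGG. The TATA motif is TATAA, with TTATA as its reverse.
Hbb-bs: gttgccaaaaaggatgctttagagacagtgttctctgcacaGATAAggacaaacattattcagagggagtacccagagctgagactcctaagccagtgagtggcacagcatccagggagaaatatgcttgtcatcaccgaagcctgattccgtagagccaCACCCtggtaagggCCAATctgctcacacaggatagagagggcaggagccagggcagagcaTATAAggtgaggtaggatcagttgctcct
Hbb-bt: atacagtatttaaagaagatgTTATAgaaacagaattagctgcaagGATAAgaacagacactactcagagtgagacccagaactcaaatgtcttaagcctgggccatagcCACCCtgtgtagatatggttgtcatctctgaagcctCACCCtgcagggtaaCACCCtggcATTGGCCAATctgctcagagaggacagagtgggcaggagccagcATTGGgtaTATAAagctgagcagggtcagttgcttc
Ms4a4a: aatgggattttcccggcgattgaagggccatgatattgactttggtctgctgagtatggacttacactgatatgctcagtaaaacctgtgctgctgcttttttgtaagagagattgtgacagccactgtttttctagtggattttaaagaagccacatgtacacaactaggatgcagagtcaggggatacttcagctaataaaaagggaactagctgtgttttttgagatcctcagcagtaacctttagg

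Both globin windows held all 4 motifs, and in Hbb-bs the matches began 209 bases (GATA motif), 90 bases (CACCC box), 76 bases (CCAAT box) and 29 bases (TATA motif) before the start. The Ms4a4a window held none of the 4. No match shown shares a base with another. Short motifs are common: of 27025 mouse promoters of this length, 23% held the GATA motif, 51.3% the CACCC box, 34.5% the CCAAT box and 23.5% the TATA motif. Among the 18 called genes found in the promoter table, 5 held the GATA motif, 9 the CACCC box, 6 the CCAAT box and 4 the TATA motif, against 14.6%, 56.7%, 36.6% and 11.5% of the 6079 tested genes found there. The motif letters and the genes shown were chosen after the sequences and the values had been seen, in place of a first set of motifs, and a match is a run of letters and not a measured site.

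Hbb-bs stood at 7080 and 8833 RPKM in the OSPa libraries, at 20734 and 18196 in sham and from 16241 to 41548 in OS5K (median 21897). Every OS5K library lay above both OSPa libraries, and the sham libraries lay among those of OS5K. The log2 fold change was 1.52 (SE 0.22, adjusted p = 0.030, limma). It ran from 0.60 with quantile normalization, where it was not called, to 1.68, and the call was kept in 16 of 26 alternative settings. With line means as units the adjusted p was 0.781. Hbb-bt, at 1041 and 1459 RPKM in OSPa, 3489 and 2994 in sham and from 2782 to 6420 in OS5K (median 3254), rose by 1.51 (SE 0.23, adjusted p = 0.031). Reads of these copies may be split between them by the counting, which the sources used here do not describe.

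Alpha-globin reads could not be read per gene. Hba-a2 had 3470 and 11.4 RPKM in OSPa and from 33.7 to 7569 in OS5K, with the missing part appearing in its near-identical copy Hba-a1. Added together, the pair gave 12542 and 17379 RPKM in OSPa, 36504 and 31148 in sham and, in OS5K, 72386 and 38041 for line #1, 33984 and 35375 for line #2 and 37253 and 25540 for line #3. The sums of the OSPa and OS5K libraries did not overlap. Hbb-y, an embryonic beta-like chain, was called (log2 fold change 0.87, SE 0.13, adjusted p = 0.030) on 0 and 2 reads in OSPa and 7 to 12 reads in OS5K. Its fitted value depends on the pseudocount and ran from 0.24 to 3.08 under the alternatives.

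Together the 4 adult hemoglobin genes held 1.59% and 2.19% of all reads in OSPa, 4.80% and 4.14% in sham, and 9.52% and 5.16% in OS5K #1, 4.40% and 4.39% in OS5K #2 and 5.11% and 3.46% in OS5K #3. The lowest shares of the 10 libraries were those of the OSPa pair. The difference of means was 3.45 percentage points with an exact two-sided permutation p of 0.107, where 0.0357 is the smallest p that 6 against 2 libraries allow. With 1 OS5K library left out at a time, the difference ran from 2.62 points without OS5K #1 replicate 1 to 3.83 without OS5K #3 replicate 2. In both of these cases the same exact test gave a p of 0.0476, the smallest that 21 splits allow. With any other OS5K library left out its p lay from 0.143 to 0.190. The test treats libraries of different lines as interchangeable. With RPKM rescaled to the reads outside hemoglobin, 28 genes were again called higher, 27 of them among the 28. In sorted bulk samples, fewer cells of a type and less RNA per cell cannot be told apart.

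Among the called genes, all of them higher in OS5K, were some of heme synthesis and iron handling. Fech, the enzyme that puts iron into heme, stood at 32.3 and 44.4 RPKM in OSPa, 78.1 and 70.8 in sham and from 69.3 to 194 in OS5K (median 99.3), without overlap between OSPa and OS5K. It rose by 1.45 (SE 0.21, adjusted p = 0.030). Slc25a37, the importer of iron into the mitochondria of red cell precursors, rose by 0.81 (SE 0.12, adjusted p = 0.030), from 21.6 and 23.2 RPKM to between 31.7 and 60.8. Isca1, an assembly factor of iron-sulfur clusters, rose by 1.23 (SE 0.17, adjusted p = 0.030), from 12.1 and 16.3 RPKM to between 25.2 and 58. The OSPa and OS5K libraries were separate for both.

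Alas2, which starts the heme pathway in the red cell lineage, was not called: it had 113 and 176 RPKM in OSPa and from 258 to 998 in OS5K (log2 fold change 1.70, SE 0.30, adjusted p = 0.073). OS5K #1 replicate 1 held the highest value and the other 5 OS5K libraries lay between 258 and 458. Slc25a39, a carrier of glutathione into mitochondria, had 15.6 and 21.7 RPKM in OSPa and from 32.8 to 79.5 in OS5K (1.25, SE 0.23, adjusted p = 0.073). Iron storage was nearly level, with log2 fold changes of 0.15 for the ferritin heavy chain Fth1 and 0.17 for the light chain Ftl1, neither called. Of the 24 tested genes of iron storage, transport and heme breakdown, 18 were higher and 6 lower, 2 were called, and the median was 0.15. All OS5K libraries lay above both OSPa libraries in 4 of the 24 and below both in 3. Over all genes tested 5.45% lay above in this way, 2.9% lay below, 54.6% were higher and 0.348% were called higher.

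Red cell enzyme and membrane genes differed in level, and Nt5c3 was the lowest of those given here. Nt5c3, a nucleotidase that clears pyrimidine nucleotides from maturing red cells, rose by 0.71 (SE 0.11, adjusted p = 0.030), from 4.75 and 4.57 RPKM to between 6.75 and 10.9. Its libraries did not overlap between the sides. Bpgm, which makes the bisphosphoglycerate that lowers the oxygen affinity of hemoglobin, was not called (1.57, SE 0.30, adjusted p = 0.083). It had 16.6 and 35.5 RPKM in OSPa and from 47 to 145 in OS5K. Epb41, the membrane skeleton protein that joins spectrin to actin, stood at 1.05 (SE 0.19, adjusted p = 0.073).

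Over the list of globin, heme and red cell genes, 25 of 28 tested members were higher and 3 lower, 9 were called, and 21 had all OS5K libraries above both OSPa libraries, where 5.45% of all genes tested did. Of all genes tested 54.6% were higher and 0.348% called higher. The list median was 1.19. The list was written with results of these data known, so its count is a description. Summed over the list, OSPa had 21139 and 28341 RPKM, sham 61750 and 53220 and OS5K from 45493 to 122748. Gata1, the transcription factor of red cell and platelet precursors, was not higher at 1.03 and 1.81 RPKM in OSPa and 0.322 to 1.81 in OS5K.

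**Figure D2:**
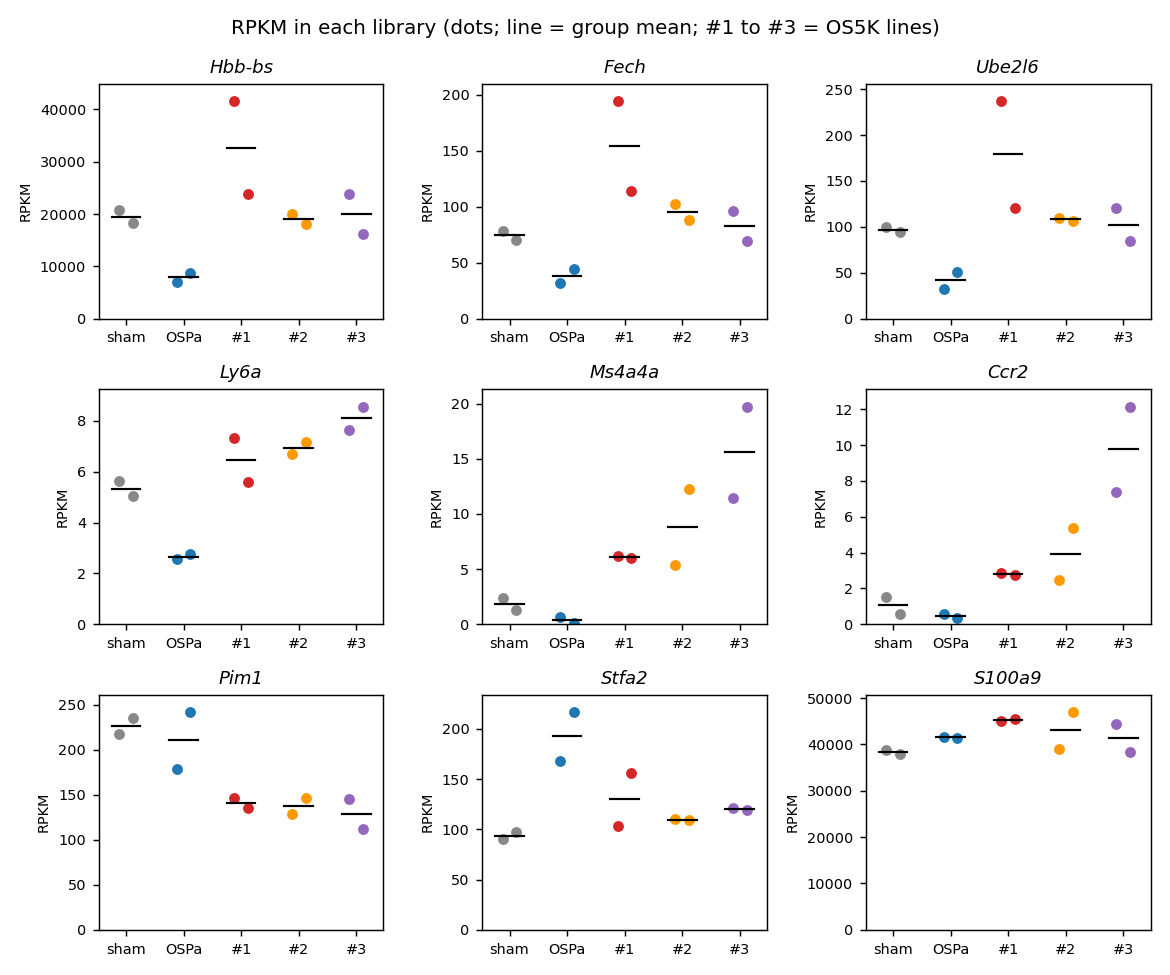
Dots give the RPKM of 9 genes in each library by group and black lines the group means, with #1 to #3 standing for the OS5K lines. Hbb-bs, Fech and Ube2l6 have their highest library in OS5K #1, Ms4a4a and Ccr2 in OS5K #3, Pim1 and Stfa2 lie lower in OS5K without being called, and S100a9 stays between 38018 and 46971.

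Several called genes with roles outside hemoglobin also had their highest library in OS5K #1 replicate 1. Ube2l6, the enzyme that hands the ubiquitin-like protein Isg15 to its targets, stood at 32.1 and 51.5 RPKM in OSPa, a mean of 97.1 in sham and from 84.5 to 237 in OS5K (median 115). It rose by 1.57 (SE 0.26, adjusted p = 0.047), and the call was kept in 8 of 26 alternative settings. Fam46c, a cytoplasmic poly(A) polymerase, rose by 1.53 (SE 0.22, adjusted p = 0.030), from 15.9 and 23.7 RPKM to between 41.8 and 102 (median 56). Fam46c was also among the called members of the red cell list above. For both genes the sham libraries fell between OSPa and most of OS5K. Isg15 itself had 110 and 155 RPKM in OSPa and from 92.2 to 154 in OS5K, with a log2 fold change of -0.07 and no call.

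Ybx3, a Y-box protein that binds DNA and RNA, rose from 6.98 and 8.92 RPKM to between 14.8 and 29.5 (log2 fold change 1.10, SE 0.16, adjusted p = 0.030). Tfdp2, a dimerisation partner of E2F transcription factors, rose from 0.435 and 1.17 RPKM to between 2.19 and 5.35 (1.2, SE 0.18, adjusted p = 0.030). Aldh1a1, which makes retinoic acid from retinaldehyde, rose from 0.917 and 1.39 RPKM to between 2.52 and 6.89 (1.15, SE 0.17, adjusted p = 0.030). None of the 3 overlapped between the sides. Memo1 (1.07, SE 0.16, adjusted p = 0.030), linked in human cells to movement driven by growth factor receptors, and Fam220a (1.10, SE 0.14, adjusted p = 0.025) were highest in that library too.

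Of the 28 called genes, 17 had their highest line mean in OS5K #1, against 11.9% of all genes tested. For 10 it was OS5K #3 (47.8% of all genes) and for 1 OS5K #2 (40.3%). Within the red cell list 23 of 28 members were highest in OS5K #1, with list medians of 1.49, 1.07 and 0.83 for lines #1, #2 and #3 against OSPa. The limma F test among the 3 lines called 0 genes and limma-voom also 0, while 535 (6.66%) had an unadjusted p below 0.05, so the order of lines is given as values. Grouping the called genes by line was chosen after their values were seen.

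**Figure D3:**
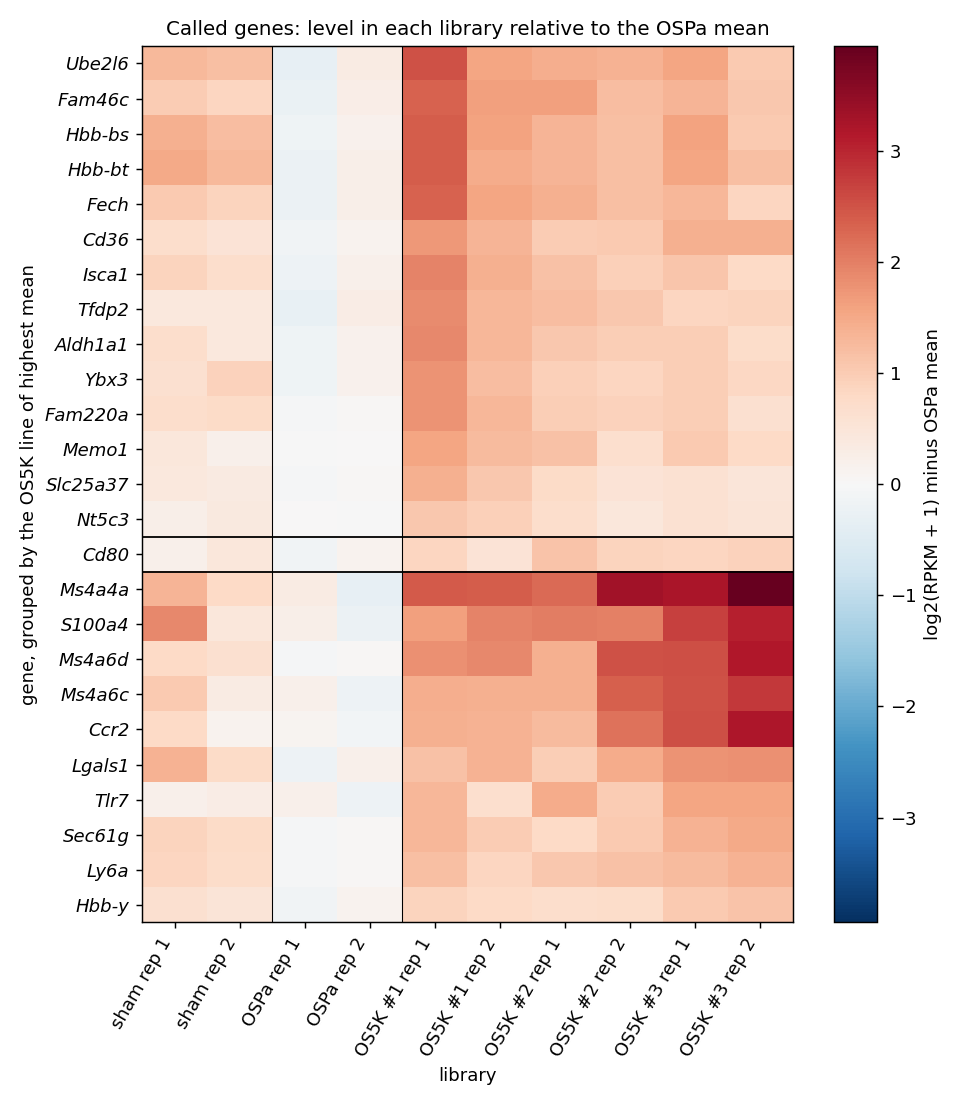
Colour gives log2(RPKM + 1) in each library minus the OSPa mean for 25 of the 28 called genes, grouped by the OS5K line of highest mean. In the upper group, which holds the globin and heme genes, the darkest column is OS5K #1 replicate 1, and in the lower group, which holds the Ms4a genes and Ccr2, it is mostly OS5K #3 replicate 2.

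The Ms4a family, membrane proteins with 4 passes that are expressed by monocytes, macrophages, mast cells and B cells, held 3 called genes. Ms4a4a stood at 0.687 and 0.0798 RPKM in OSPa, 2.39 and 1.34 in sham and from 5.37 to 19.7 in OS5K (median 8.81), with no overlap between any OS5K library and the other 4. It rose by 2.91 (SE 0.31, adjusted p = 0.0077). The value ran from 1.42 to 4.97 under the alternatives, since it depends on the pseudocount. Ms4a6d rose from 0.414 and 0.538 RPKM to between 2.90 and 12.2 (2.22, SE 0.26, adjusted p = 0.016) and Ms4a6c from 0.841 and 0.390 to between 3.19 and 10.1 (1.98, SE 0.26, adjusted p = 0.028). The Ms4a6 genes share sequence, so the split of reads among them is uncertain.

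In the family, 6 of 6 tested members were higher, 5 of them without overlap, and the median was 1.58. Of all genes tested 54.6% were higher, 5.45% higher without overlap and 0.348% called higher. The family's line medians against OSPa were 0.99, 1.42 and 2.34 for OS5K #1, #2 and #3, and all 6 members were highest in OS5K #3. Ms4a6b was not called at 0.705 and 0.193 RPKM in OSPa and 0.715 to 4.23 in OS5K (0.94, SE 0.20, adjusted p = 0.108). Ms4a1, which encodes the B cell antigen CD20, had 1.94 and 0.787 RPKM in OSPa and from 0.866 to 3.69 in OS5K (0.30, SE 0.25), and its libraries overlapped. The summed level of the family was 6.73 and 3.03 RPKM in OSPa, 13.6 and 7.78 in sham, 19.3 and 18.9 in OS5K #1, 16.7 and 36.3 in OS5K #2 and 39.7 and 61 in OS5K #3.

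Other called genes of monocytes had their highest line mean in OS5K #3, apart from Cd36. Ccr2, the chemokine receptor that lets monocytes leave the marrow, stood at 0.574 and 0.345 RPKM in OSPa (54 and 35 reads), 1.52 and 0.599 in sham and from 2.48 to 12.1 in OS5K (median 4.12). It rose by 1.98 (SE 0.26, adjusted p = 0.028), with all OS5K libraries above the other 4. Lgals1, which encodes galectin-1, rose by 1.42 (SE 0.19, adjusted p = 0.028), from 0.398 and 0.813 RPKM to between 2.14 and 4.51 (median 3.22). S100a4, a calcium-binding protein of motile cells, was called on 3 and 0 reads in OSPa and 23 to 70 in OS5K. Its fitted log2 fold change of 2.22 (SE 0.32, adjusted p = 0.030) depends on the pseudocount and ran from 0.89 to 4.85.

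Cd36, a scavenger receptor that takes up fatty acids and oxidised lipoproteins, stood at 0.620 and 0.985 RPKM in OSPa, 1.91 and 1.61 in sham and from 2.58 to 4.85 in OS5K (median 3.66). The OS5K libraries lay above all of the others. It rose by 1.32 (SE 0.13, adjusted p = 0.0077), and this call was kept in 24 of 25 alternative settings in which it was tested. Its highest line mean was that of OS5K #1, and no difference among lines was called. The line means were 4.22, 2.61 and 3.76 RPKM.

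Monocyte and macrophage markers were higher in 35 of 37 tested members and lower in 2, with 7 called, 18 without overlap and a median of 0.56. Over all genes tested 54.6% were higher, 0.348% called higher and 5.45% higher without overlap. The median for lines #1, #2 and #3 was 0.38, 0.72 and 0.70. The abundant members did not stand apart: Csf1r, the growth factor receptor of monocytes, had 86.8 and 103 RPKM in OSPa and from 80.6 to 108 in OS5K, and Ly6c2 had 29.2 and 29 in OSPa and from 25.7 to 35.4 in OS5K. F13a1, the factor XIII subunit found in monocytes and platelets, had 3.22 and 7.37 RPKM in OSPa and, in OS5K, 9.88 and 18.7 for line #1, 26.1 and 11.7 for line #2 and 13.1 and 27 for line #3, and was not called (1.56, SE 0.43, adjusted p = 0.253). C1qa, a complement chain of macrophages, was listed at 0 in both OSPa libraries and from 0.0699 to 2.01 RPKM in OS5K, also without a call. The part of other cells in these values was not tested.

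Surface proteins, an endosomal receptor and a translocon subunit made up the rest of the calls described here. Ly6a, the surface antigen Sca-1 and an interferon-inducible gene, stood at 2.56 and 2.77 RPKM in OSPa, 5.63 and 5.04 in sham and from 5.60 to 8.56 in OS5K (median 7.25). It rose by 1.15 (SE 0.12, adjusted p = 0.0077), and the call was kept in 24 of 26 alternative settings. Tlr7, an endosomal receptor for single-stranded RNA, rose by 1.26 (SE 0.19, adjusted p = 0.030), from 4.57 and 3.19 RPKM to between 6.65 and 13.1 (median 11.6). Here the sham libraries, at 4.57 and 4.86, lay by OSPa and below all of OS5K. Cd80, a costimulatory ligand for T cells, rose by 0.85 (SE 0.13, adjusted p = 0.031), from 4.32 and 5.37 RPKM to between 7.40 and 11.6, above sham at 5.72 and 6.90.

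Sec61g, a small subunit of the channel that carries new proteins into the endoplasmic reticulum, rose by 1.17 (SE 0.12, adjusted p = 0.0077), from 0.554 and 0.623 RPKM in OSPa (19 and 23 reads) to between 1.77 and 3.51 in OS5K (63 to 119 reads). Sham stood between, at 1.91 and 1.70, and overlapped OS5K. Around it, 31 of 34 tested genes of the translocon, signal peptidase and folding were higher, 1 was called and 3 were without overlap, with a median of 0.13, where 54.6% of all genes tested were higher and 5.45% without overlap on that side. Ddost, a subunit of the complex that adds glycans to new proteins, had 1.59 and 1.16 RPKM in OSPa and from 2.07 to 3.97 in OS5K (0.65, SE 0.15, adjusted p = 0.133). The highest line mean was that of OS5K #3 in 29 of the 34.

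No gene of the neutrophil granule lists or of mature neutrophils was called. Among the 12 most abundant genes, those that are not globins had log2 fold changes from -0.07 for S100a11 to 0.36 for Retnlg, a resistin-like protein of neutrophils, and none was called. Retnlg stood at 2306 and 2502 RPKM in OSPa and from 2304 to 4480 in OS5K, and its libraries overlapped. The collagenase Mmp8 of the specific granules had 350 and 344 RPKM in OSPa and from 393 to 516 in OS5K without overlap (0.34, SE 0.09, adjusted p = 0.219). Genes of gelatinase granules and secretory vesicles were higher in 9 of 17 and lower in 8, with a median of 0.02, and those of specific granules were higher in 10 of 23 and lower in 13, with a median of -0.04.

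Of 26 genes of mature and aged circulating neutrophils, 17 were lower and 9 higher, 5 without overlap on the lower side, where 2.9% of all genes were, and 1 on the higher side, with a median of -0.08. Among the 5 were Cxcr2, Jund, Klf2 and Pim1. Cxcr2, the receptor that draws neutrophils out of the marrow, had 863 and 846 RPKM in OSPa, 766 and 764 in sham and from 710.4 to 820.3 in OS5K (-0.17, SE 0.10, adjusted p = 0.793). Chemokine and chemoattractant receptors summed to 2483 and 2369 RPKM in OSPa, 2153 and 2295 in sham and from 2082 to 2359 in OS5K, with OSPa above all others. By gene, 11 of the 17 tested were higher and 6 lower, with a median of 0.08 and 1 call, Ccr2. Without overlap were 2 on the higher side and 3 on the lower side. Over all genes tested 54.6% were higher, 0.348% called higher, 5.45% higher without overlap and 2.9% lower without overlap.

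Specific granule genes that mark less mature neutrophils varied within lines. Ltf (lactoferrin) and Camp (the cathelicidin) together had 344 and 264 RPKM in OSPa, 301 and 185 in sham, 278 and 67.9 in OS5K #1, 51.5 and 175 in OS5K #2 and 260 and 49 in OS5K #3. Ngp, another granule protein of immature cells, had 555 and 524 RPKM in OSPa and 184, 142 and 121 in those same 3 low libraries, against 374 to 579 in the other 3. The low libraries were 1 from each line and overlapped with none of the OSPa pair. None of the genes was called, with log2 fold changes of -1.35 for Ltf (SE 0.72), -1.40 for Camp (SE 0.68) and -1.04 for Ngp (SE 0.57).

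Platelet and mitochondrial transcripts were high in those 3 libraries. The platelet list summed to 1246 and 1802 RPKM in OSPa and to 2339, 3204 and 3240 in the low-Ltf libraries, against 1294, 1613 and 1606 in the other OS5K libraries. The 13 mitochondrially encoded subunits summed to 865 and 918 RPKM in OSPa, to 1688, 1626 and 1802 in the same 3 libraries and to 1082, 943 and 1167 in the others. All 13 were higher in OS5K, 4 without overlap, with a median of 0.47, and none was called. Over all genes tested 54.6% were higher and 5.45% higher without overlap. Of 24 platelet genes, 22 were higher, with a median of 0.46, no call and no gene without overlap. Pf4, the platelet chemokine, had 237 and 393 RPKM in OSPa and from 335 to 854 in OS5K (0.80, SE 0.48, adjusted p = 0.825). The part of platelets or of RNA quality in these differences was not tested.

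**Figure D4:**
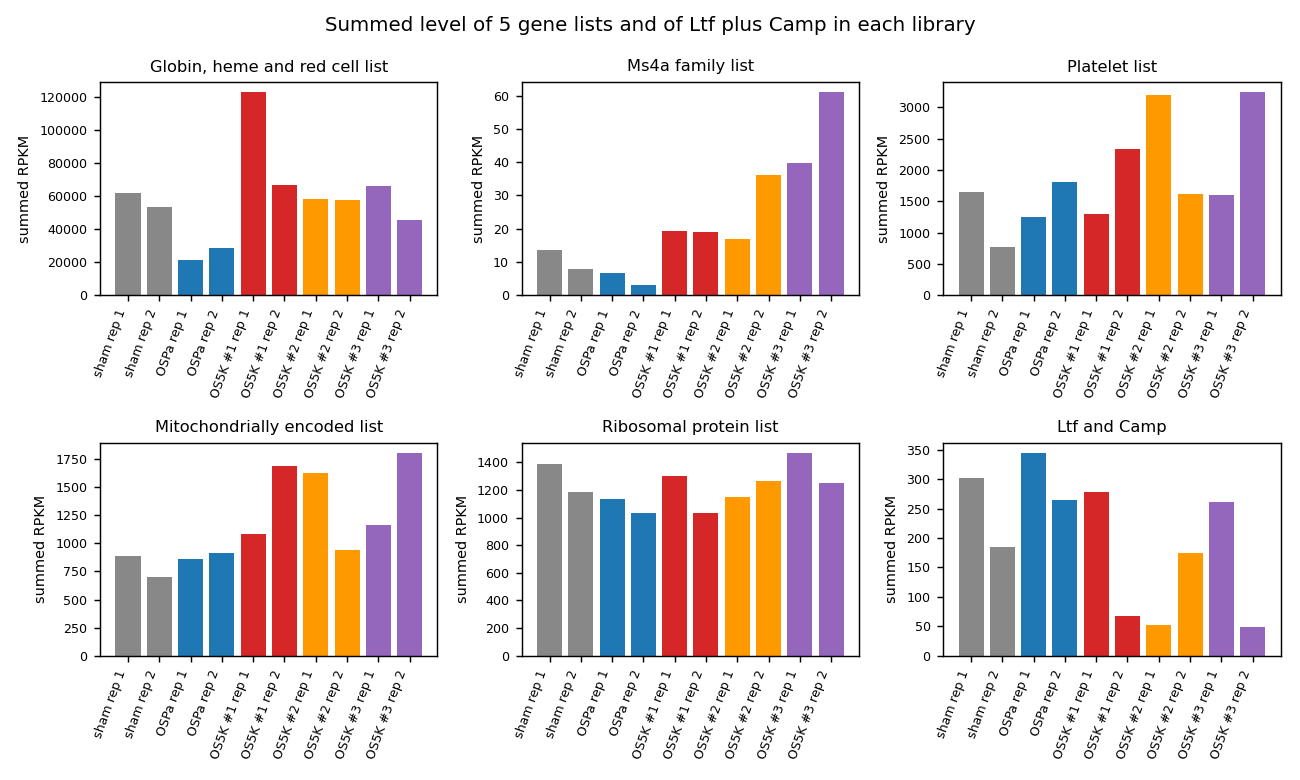
Bars give the summed RPKM of 5 gene lists, and of Ltf and Camp, in each of the 10 libraries. Red cell genes are lowest in the OSPa libraries (21139 and 28341) and highest in OS5K #1 replicate 1 (122748), Ms4a genes are highest in OS5K #3 replicate 2 (61), and the 3 OS5K libraries with the highest platelet sums (2339 to 3240) have the lowest Ltf and Camp sums (49 to 67.9).

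On the lower side no gene was called, and the genes described are those of smallest p and members of lists. Pim1, a kinase induced by cytokines through Stat factors, had 179 and 242 RPKM in OSPa, 218 and 235 in sham and from 112 to 147 in OS5K (log2 fold change -0.62, SE 0.14, adjusted p = 0.154). All 6 OS5K libraries lay below the other 4. With line means as units Pim1 was called lower, as were Prr5l, Stfa2, BC117090 and Ltf of the genes described here. Klf2, a transcription factor of quiescence, had 407 and 424 RPKM in OSPa, 330 and 364 in sham and from 259 to 366 in OS5K (-0.41, SE 0.11, adjusted p = 0.219). Siglecf, a lectin of eosinophils and of some neutrophils, had 10.7 and 13 RPKM in OSPa, 11.8 and 11.4 in sham and from 6.14 to 9.86 in OS5K (-0.58, SE 0.16, adjusted p = 0.238). OS5K lay below OSPa in every library for both Klf2 and Siglecf. Siglecf was the 1 lower gene among 4 tested eosinophil and basophil markers. The other 3 were higher and not called, at 1.89 for Alox15 (12 and 0 reads in OSPa), 1.35 for Ear2 and 0.25 for Ccr3. Alox15 and Ear2 were without overlap on the higher side. Over all genes tested 54.6% were higher and 5.45% higher without overlap.

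Socs3, the feedback inhibitor of cytokine signalling, had 222 and 235 RPKM in OSPa and from 137 to 200 in OS5K (-0.42, SE 0.17, adjusted p = 0.552). It too was without overlap. Of the 24 tested genes of colony-stimulating factor receptors and Stat3 targets, 19 were lower and 5 higher, 4 were without overlap on the lower side, where 2.9% of all genes were, and the median was -0.13. Prr5l, a partner of the mTOR complex that phosphorylates Akt, had 68.9 and 78.5 RPKM in OSPa and from 44.4 to 60.6 in OS5K (-0.49, SE 0.13, adjusted p = 0.219). The remaining genes of smallest p on this side were Zfp971 (-0.57), Camk1d (-0.36), B4galt3 (-0.45) and Snap29 (-0.42), a zinc finger protein, a calmodulin kinase, a galactosyltransferase and a membrane fusion protein, all without overlap.

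Stefins, inhibitors of cysteine proteases, come as a cluster of close copies in mice, so values of single members are uncertain. The stefin A genes together had 2005 and 2108 RPKM in OSPa, 1209 and 1385 in sham, 1387 and 1916 in OS5K #1, 1448 and 1409 in OS5K #2 and 1609 and 1745 in OS5K #3. OSPa was the highest of all groups and did not overlap with any other library. Stfa2 had 168 and 217 RPKM in OSPa, 90.2 and 97.3 in sham and from 103 to 156 in OS5K (-0.68, SE 0.16, adjusted p = 0.148). BC117090, a stefin-like gene of the cluster, had 57.5 and 42.7 RPKM in OSPa and from 23.5 to 35.9 in OS5K (-0.72, SE 0.14, adjusted p = 0.083), the smallest adjusted p on the lower side. With the serine protease inhibitors, 10 of 13 tested members were lower, 4 without overlap, and the median was -0.27. Of all genes tested 45.4% were lower and 2.9% lower without overlap.

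The interferon lists differed in their counts. Over all genes tested 45.4% were lower, 2.9% lower without overlap and 0.348% called higher. Of 60 antiviral interferon-stimulated genes, 22 were higher and 38 lower, with a median of -0.07 and 3 called higher, the genes Ube2l6, Tlr7 and Ly6a described above. The line medians were -0.31, 0.03 and 0.11 for OS5K #1, #2 and #3, and 42 of the 60 were highest in OS5K #3. Of 17 GTPases and partners of the interferon-gamma response, 16 were lower and 1 higher, 3 without overlap, and the median was -0.42. Their sum was 520 and 803 RPKM in OSPa, 641 and 1337 in sham and from 442 to 557 in OS5K, so that OSPa replicate 1 overlapped with OS5K and sham replicate 2 stood highest. Gbp3, a guanylate-binding GTPase, had 3.87 and 5.99 RPKM in OSPa and from 2.05 to 3.52 in OS5K (-0.69, SE 0.36, adjusted p = 0.749).

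Genes of protein synthesis and respiration were slightly higher. Of 72 cytosolic ribosomal protein genes, 67 were higher and 5 lower, 14 without overlap, with a median of 0.25 and no call. Of all genes tested 5.45% were higher without overlap. The ribosomal median was 0.03 for OS5K minus sham and -0.25 for OSPa minus sham. Rpl32, of the large subunit, had 11.3 and 10.9 RPKM in OSPa, 22.2 and 12.4 in sham and from 15.2 to 28.3 in OS5K (0.81, SE 0.19, adjusted p = 0.163). The line medians were 0.16, 0.21 and 0.39, and 59 of the 72 were highest in OS5K #3. Of 70 nuclear-encoded respiratory chain genes, 56 were higher (median 0.13), and of 33 proteasome genes 27 were (median 0.08), where 54.6% of all genes were higher and 45.4% lower. Glycolysis and hypoxia genes went the other way, with 25 of 31 lower, none called and a median of -0.11.

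Lipid and redox genes were mixed. Of 27 lipid uptake and storage genes, 18 were higher and 9 lower, 6 without overlap on the higher side (5.45% of all genes), with 1 called (Cd36) and a median of 0.04. Plin2, a coat protein of lipid droplets, had 23.9 and 9.67 RPKM in OSPa, 35.5 and 37.9 in sham and from 30.5 to 59 in OS5K (1.29, SE 0.31, adjusted p = 0.163). Acaa2, a thiolase of fatty acid oxidation in mitochondria, had 7.30 and 6.91 RPKM in OSPa, 14.3 and 13.2 in sham and from 9.37 to 16 in OS5K (0.82, SE 0.14, adjusted p = 0.055). OSPa was the lowest group for both genes.

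Cat, the peroxide-degrading catalase of red cells and liver among other tissues, had 9.18 and 16.4 RPKM in OSPa, 19.3 and 11.2 in sham and from 22.8 to 35.4 in OS5K (1.10, SE 0.25, adjusted p = 0.148). Gsr, glutathione reductase, had 55.8 and 59.6 RPKM in OSPa and from 38.6 to 50.7 in OS5K (-0.33, SE 0.10, adjusted p = 0.307), with sham at 39.7 and 40.6. OSPa and OS5K did not overlap for either gene, and OS5K was the higher for Cat and the lower for Gsr. Of 31 redox genes, 20 were higher and 11 lower, 5 and 3 of them without overlap (5.45% and 2.9% of all genes), with a median of 0.07 and no call.

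B cell and MHC class II genes, at 13 of 22 higher and a median of 0.12, were highest in OS5K #3 for 21 of the 22. Their sums were 249 and 203 RPKM in OSPa, 476 and 230 in sham, 240 and 141 in OS5K #1, 240 and 282 in OS5K #2 and 383 and 339 in OS5K #3. OSPa and OS5K overlapped. Of 23 genes of MHC class I and antigen processing, 16 were lower and 7 higher, with a median of -0.08 and no call or gene without overlap.

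**Figure D5:**
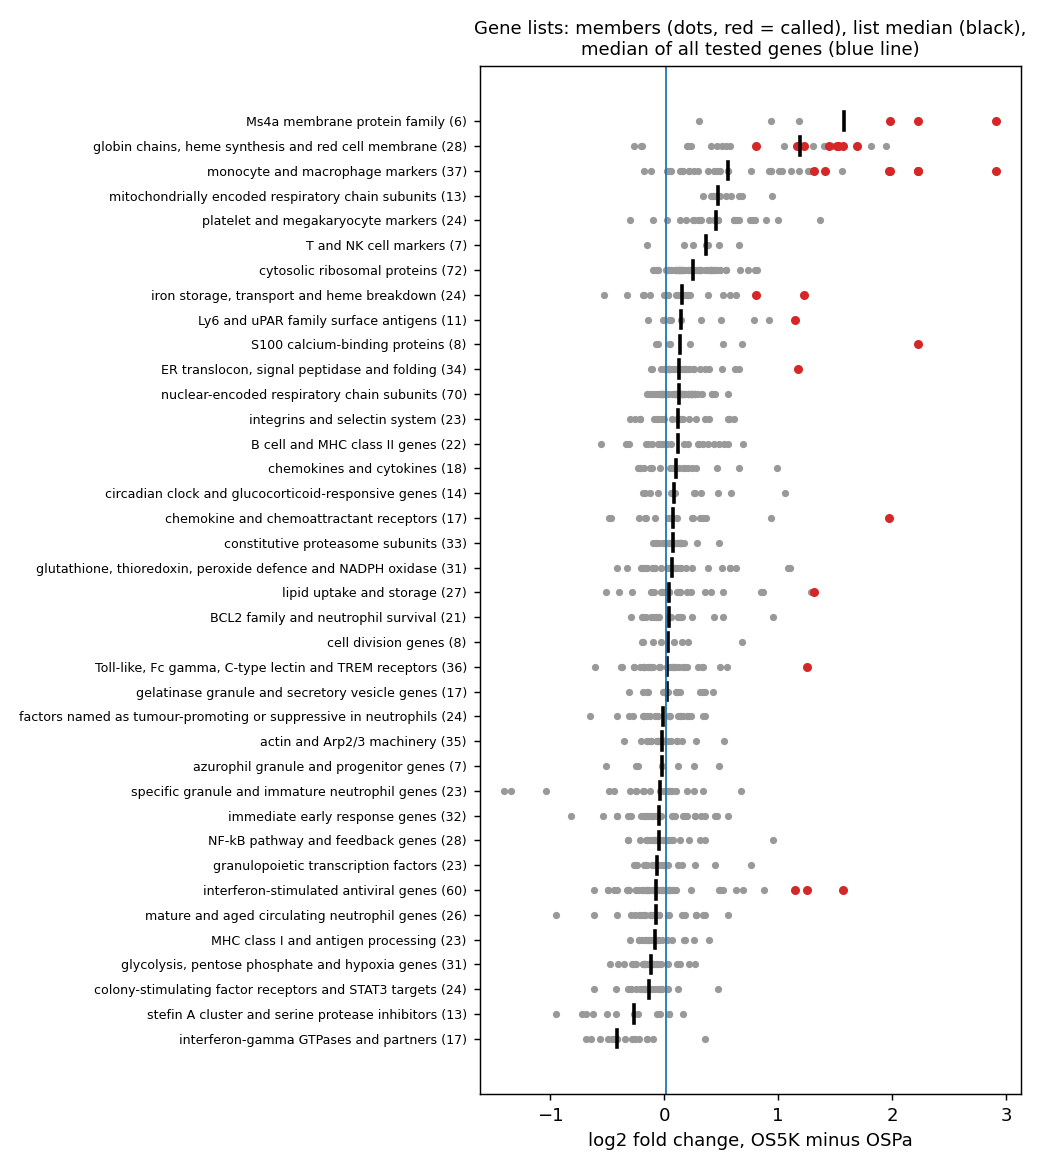
Rows are gene lists of at least 6 tested members, with the number of tested members in brackets. Grey dots are their members, red dots called members and black ticks the list medians, on an axis of log2 fold change, OS5K minus OSPa. The Ms4a family (median 1.58), red cell genes (1.19) and monocyte genes (0.56) lie, of the lists drawn, farthest to the right of the median of all genes (0.02, blue line), and the interferon-gamma list (-0.42) and the stefin and serine protease inhibitor list (-0.27) farthest to the left.

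Sham libraries were not part of the contrast but place its ends. In the same limma fit 0 genes were called for OS5K minus sham and 0 for OSPa minus sham. The sham mean lay between the OSPa and OS5K means in all 28 called genes. Over all 8039 genes tested it lay between in 1251 (15.6%) with OS5K the higher and in 856 with OS5K the lower. It lay below both in 2461 and above both in 3470. Of the 438 genes with all OS5K libraries above both OSPa libraries, the sham mean lay between the OSPa and OS5K means in 299, below both in 71 and above both in 68. Of the 233 genes with all OS5K libraries below both OSPa libraries (2.9%), it lay between in 143, below both in 43 and above both in 47. These genes were picked in part by their OSPa values, so the counts are given without a test.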

How the data were processed

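The authors deposited RPKM values for 10 libraries of sorted neutrophils, 2 in each of 5 groups. Per the submitters' processing notes the build was mm10. The aligner, the counter and any use of strand are not named in the sources at hand. Per the labels' protocols, cDNA was made with SMART-Seq v4 and libraries with an Ion Xpress Plus kit. Whole reads were recovered from RPKM steps with gene lengths of a GENCODE annotation of the same build. Of the values above 0, 84.7% were whole to within 0.02 reads, and totals differed by up to 1.13 times. In a gene of 1 kb, 1 read was worth 0.0726 RPKM at the lowest total. Replicates differed by more than counting noise in every group (median chi-square per gene 3.01 to 4.56).

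Values were transformed as log2(RPKM + 1) with a pseudocount of 1. The filter kept genes that reached 1 RPKM or more in 2 or more libraries. One limma fit (3.58.1, R 4.3.3, with trend and robust options) modelled the 5 group means with 5 residual degrees of freedom, and p-values were adjusted over all 8039 genes. SE is that of the contrast. The hemoglobin share was tested by exact permutation of 6 against 2 libraries. Lists are described by counts and medians with no set test. The scripts were tested on simulated counts.

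Genes named are the called genes that have a gene name, the 10 of smallest p on each side among genes of at least 5 RPKM that were not called, the 12 most abundant, up to 4 members of each list, and markers of each cell type. The members and lists were chosen with earlier results of these data known. Outside the rule, after values were seen, came Isg15, Ngp, Ltf, Gata1, F13a1 and C1qa among the genes described, the sums over a few genes and the motifs. Some genes are not reported here; the counts and lists include them. Promoters came from RefSeq (GRCm38.p6). Alternatives were other scalings, filters of none and 5 RPKM, pseudocounts of 0.1 and 5, other fits, lines or libraries left out, limma-voom and, added after the data were seen, Hba-a1 and Hba-a2 summed.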

Additional observations from a re-analysis of the deposited data

Results flagged for a closer look

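A gap test over the 6 OS5K libraries set the distance from the highest or lowest library to its neighbour against the whole range, with Dixon's 95% critical value for 6 libraries as the limit. It was applied to 36 values, the called genes reported, the hemoglobin share and 10 list sums, the sums having been chosen after values were seen. The 6 libraries were taken as 1 group although they belong to 3 lines. Chance passes the limit in about 1 in 20 groups. In all, 8 values passed, each of them high in OS5K #1 replicate 1.

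The hemoglobin genes took 9.52% of reads there, against 5.16% in the next library. The summed red cell list stood at 122748 RPKM against 66642, Hbb-bs at 41548 against 23847 and Hbb-bt at 6420 against 3622. Fech stood at 194 RPKM against 114, Fam46c at 102 against 61.5 and Ube2l6 at 237 against 121. Ybx3 stood at 29.5 RPKM against 19.9. These genes move together in this library, so the 8 values are not independent. Without this library 28 genes were still called higher, 24 of them among the 28 reported.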

How the results depend on the processing

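The count of genes called higher in OS5K was 28, and it lay from 20 to 37 under all other scalings, variance settings, pseudocounts, the filter at 5 RPKM, limma-voom and the fit without sham. It moved to 4 higher and 11 lower with no filter on low values, where the test among lines called 7 genes, to 77 higher and 19 lower with line means as units, and to 13 higher without line OS5K #1. With 1 library left out it ran from 0 to 56 higher and from 0 to 4 lower. The genes called lower without OS5K #1 replicate 2 included Stfa2. It was 0 without OSPa replicate 1 and 5, of which 2 were among the 28, without OSPa replicate 2. The causes were not tested. The hemoglobin difference of 3.45 percentage points was 10.9 points as a share of summed RPKM (exact permutation p = 0.0357) and 2.62 to 3.83 points with 1 library left out (exact p from 0.0476 to 0.286). No called gene changed sign under the 26 settings, and 17 uncalled genes named by the rule did.

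Deviations of same-numbered libraries correlated between -0.38 and 0.45, with both signs among the pairs of groups. With 2 libraries in each group a deviation is a single difference, so these values cannot exclude pairing by replicate number or a shared batch. With the replicate block 21 genes were called, all among the 28, and 0 lower. The calls lost under it included those of Hbb-y, Ybx3, Tfdp2, Nt5c3, Cd80 and Ube2l6.

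Depth limits the low genes: 0 to 3 reads in OSPa set the values of S100a4 and Hbb-y.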
